A study of Mus musculus with 4 samples.

Results

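The genes described here are those of autophagy and mitophagy in mouse fetal liver erythroid progenitors, labelled as control or as Rcor1-/-. They were chosen by name: rows of the count table whose symbol belongs to the Atg, Ulk, Wipi, Gabarap, Map1lc3 or Bnip3 families or to a short set of partners, with at least 40 counts summed over the 4 libraries. This gave 40 genes of 35927 with values. The name pattern matched 43 rows. The 3 rows under the minimum were Atg4a, a protease gene with 6 counts in each control and 3 and 1 in the mutants, and both rows of Park2, the gene of the ubiquitin ligase parkin, with 7 and 3 counts over all libraries. The scarcest genes kept were Ulk4 with 152 counts in all and Atg16l2 with 179. The name Tfeb matched no row, because the table lists that gene, a transcription factor of lysosome and autophagy genes, under its older symbol Tcfeb. It is given below as a related gene.

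Both groups were cells of the fetal liver at E13.5 on a C57BL/6 background. They were sorted for surface CD71 (the receptor for transferrin) and for lack of TER119, which appears on more mature precursors. Control libraries joined Rcor1+/+ and Rcor1+/- embryos, and mutant libraries were Rcor1-/-. Rcor1 encodes CoREST, the scaffold that ties the histone demethylase Kdm1a to histone deacetylases. There were 2 libraries of each kind, every one made from pooled livers. The sources used here do not state how many livers went into a pool or how the control genotypes were mixed. The question of the design is which genes depend on Rcor1 in these progenitors.

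Autophagy encloses cytoplasm in a double membrane, the autophagosome, and delivers it to the lysosome. A kinase complex around Ulk1 starts it, a lipid kinase complex around Becn1 marks the membrane, Atg2, Atg9 and Wipi proteins feed its growth, and a pair of ubiquitin-like conjugation systems attaches proteins of the Atg8 family (Map1lc3 and Gabarap) to it. Red cell precursors use the same machinery to remove their mitochondria late in maturation, and Bnip3l, a receptor in the outer mitochondrial membrane, is known to be needed for that step. The factor Gata1 has been described as an activator of autophagy genes in erythroid cells.

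Counts summed to between 15053229 and 26892375 per library. Levels are given as CPM, counts scaled to a fixed total by library total and by TMM factor (trimmed mean of M-values), in the order control 1, control 2, mutant 1, mutant 2. A change is a log2 fold change, mutant against control, with its standard error and a Benjamini-Hochberg adjusted p from edgeR's quasi-likelihood test over 13140 genes. The standard error was derived from that test, as the size of the change divided by the square root of the F statistic. A gene "rose" or "fell" where adjusted p was below 0.05. Rcor1 itself had 4083, 3807, 2061 and 1240 counts in that order, and fell by 1.09 ± 0.06 (adjusted p = 4.60e-11). The mutants kept 77.9 and 78.9 CPM of it, 0.469 of the control level. The sources used here do not state which part of the gene the allele removes, so whether these reads lie outside it was not tested. All 10 erythroid markers listed were detected; together they took 0.641% and 0.663% of control counts and 0.524% and 0.518% of mutant counts, and 9 of them fell. Marker lists of other cells took small but higher shares in the mutant libraries. These shares, like the erythroid ones, use raw counts without TMM factors, while the calls of rises and falls are TMM scaled. Over all genes tested 28.3% rose and 29.2% fell. Megakaryocyte and platelet markers (11 of 13 rose and Vwf fell) went from 0.0132 to 0.0137% of counts up to 0.0433 to 0.0437%. Hepatoblast markers (13 of 17 tested rose and 0 fell) went from 0.104 to 0.105% up to 0.155 to 0.156%. Granulocyte markers (5 of 11 rose and Elane fell) went from 0.00557 to 0.00596% up to 0.0149 to 0.0154%. Macrophage markers (3 of 11 tested rose, Marco fell and 7 did not pass) went from 0.00218 to 0.00223% up to 0.00372 to 0.00386%. Among them Lyz2 went from 1.16 to 9.21 CPM, Csf1r from 3.22 to 7.75 and Marco from 3.19 to 0.412. Endothelial markers (6 of 12 rose and Eng fell) went from 0.0183 to 0.0185% up to 0.0203 to 0.0207%. Their most abundant gene, Egfl7, did not pass and went from 150 to 140 CPM. With library totals alone the median change of all genes was 0.15, so a difference as small as the endothelial one depends on scaling. No marker of these lists was at 0 in every library. The part of such cells in the changes below was not tested, and in pooled cells a change in the share of a cell type cannot be told apart from a change in RNA per cell.

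The 7 genes that changed by at least 1.5-fold were Atg9b, Bnip3, Atg4c and Bnip3l, which rose, and Map1lc3a, Atg2a and Atg4d, which fell. RefSeq promoter windows (GRCm38.p6) were at hand for 34 of the 40 genes and for 5 of these 7; Bnip3l and Map1lc3a had no entry. The 250 bases before the transcription start of those 5 are shown, 5′ to 3′ on the gene's strand, because they are the stretches that lie directly upstream of the genes with the largest changes. They lie at chr7:138909507-138909756, minus strand (Bnip3), chr5:24392144-24392393, minus strand (Atg9b), chr4:99193684-99193933, plus strand (Atg4c, the more upstream of its 2 starts), chr19:6241418-6241667, plus strand (Atg2a) and chr9:21265035-21265284, plus strand (Atg4d). Capitals mark matches on either strand to TGATAA or AGATAA (bound by GATA factors), TCACGTGA (an E-box shared by lysosomal and autophagy genes), ACGTG or GCGTG (the core bound by hypoxia-inducible factors) and AAATCA (holding the AATC core bound by Gfi1 and Gfi1b). ACGTG is also contained in TCACGTGA.
Bnip3: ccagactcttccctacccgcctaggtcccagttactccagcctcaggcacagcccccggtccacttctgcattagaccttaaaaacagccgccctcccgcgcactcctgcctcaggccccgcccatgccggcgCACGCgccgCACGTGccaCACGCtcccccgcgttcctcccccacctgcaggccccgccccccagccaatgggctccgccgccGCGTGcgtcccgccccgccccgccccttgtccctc
Atg9b: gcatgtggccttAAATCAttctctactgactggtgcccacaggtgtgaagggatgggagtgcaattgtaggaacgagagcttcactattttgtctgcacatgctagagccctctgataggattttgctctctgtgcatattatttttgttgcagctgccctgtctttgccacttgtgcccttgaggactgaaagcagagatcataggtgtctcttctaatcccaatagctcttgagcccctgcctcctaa
Atg4c: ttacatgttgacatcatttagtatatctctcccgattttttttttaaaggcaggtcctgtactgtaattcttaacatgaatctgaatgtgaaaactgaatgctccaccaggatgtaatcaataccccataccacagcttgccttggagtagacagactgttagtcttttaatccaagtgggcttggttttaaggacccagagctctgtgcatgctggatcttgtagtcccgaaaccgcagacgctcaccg
Atg2a: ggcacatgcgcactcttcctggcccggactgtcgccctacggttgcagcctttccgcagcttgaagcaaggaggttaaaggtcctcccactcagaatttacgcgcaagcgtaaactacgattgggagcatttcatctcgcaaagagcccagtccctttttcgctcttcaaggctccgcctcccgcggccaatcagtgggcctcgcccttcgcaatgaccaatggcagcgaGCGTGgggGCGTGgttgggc
Atg4d: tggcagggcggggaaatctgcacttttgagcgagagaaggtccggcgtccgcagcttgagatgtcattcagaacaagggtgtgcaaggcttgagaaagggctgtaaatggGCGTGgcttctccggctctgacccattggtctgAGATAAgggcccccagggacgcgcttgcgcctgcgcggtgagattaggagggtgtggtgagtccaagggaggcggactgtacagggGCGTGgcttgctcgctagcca

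In these windows Bnip3 held 3 matches to GCGTG, and 2 to ACGTG that overlap in a single CACGTG. That stretch reads the same on both strands, so the 2 matches are a single site. Atg2a and Atg4d held 2 each to GCGTG, Atg4d held 1 to AGATAA and Atg9b held 1 to AAATCA. The Atg4c window shown held none of the 6 motifs, while that of its other start holds GCGTG. Among all 32851 promoter windows of the same length, ACGTG occurred in 16.6%, GCGTG in 28.2%, AAATCA in 12.4%, AGATAA in 9.99%, TGATAA in 7.94% and TCACGTGA in 0.79%. Among the 34 autophagy genes with an entry, ACGTG was found in 10, GCGTG in 21, AAATCA in 4 (Atg13, Atg7, Atg9b and Gabarapl1), AGATAA in 1 (Atg4d), TGATAA in 1 (Pink1) and TCACGTGA in 1 (Atg3). These genes have 39 windows, and a gene counted if any of its windows matched. By window, the unit of the percentages above, ACGTG was in 10 of 39 and GCGTG in 22 of 39. These matches describe letters, not binding.

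Autophagy genes as a set took nearly the same share of raw counts in both groups, 0.257% and 0.256% in controls and 0.264% and 0.260% in mutants. These shares use raw library totals, not the TMM scale on which levels and changes are given. All 40 passed the filter on low counts. Of these 8 rose, 14 fell and 18 did not pass; the 22 called were 55% of the set, against 57.5% of all genes tested. Rises made up 20% of the set (28.3% of all genes) and falls 35% (29.2% of all genes). The median log2 fold change was -0.04, against 0.01 over all genes, and the median size of change without its sign was 0.24, against 0.32. Changes of at least 1.5-fold were rises for 4 genes and falls for 3, where 16.8% of all genes rose and 6.69% fell by as much. Levels did not overlap between the groups for 30 of the 40 genes, against 77.9% of all genes tested. The counts called are thus close to the background, and what the set shows lies in which genes moved each way.

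Scaling set the balance. With library totals alone the median change of all genes was 0.15, 15 autophagy genes rose and 9 fell, where 38.9% of all genes rose and 19.4% fell. Upper quartile scaling gave 11 and 12, against 33.7% and 23.5%. In the authors' deposited table, all 40 genes are listed, with 12 higher and 9 lower at an adjusted p below 0.05, where 37.7% of all its genes are higher and 17.7% lower. The fold changes in the authors' deposited table differ from those with library totals alone by a median of -0.00051 and from the TMM values by a median of 0.14, so that table is on the scale of library totals. Changes below are on the TMM scale. The 8 rises held under all 3 scalings; of the 14 falls, those of Atg2b, Atg13, Gabarapl1, Sqstm1 and Pink1 did not pass with library totals alone.

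**Figure D1:**
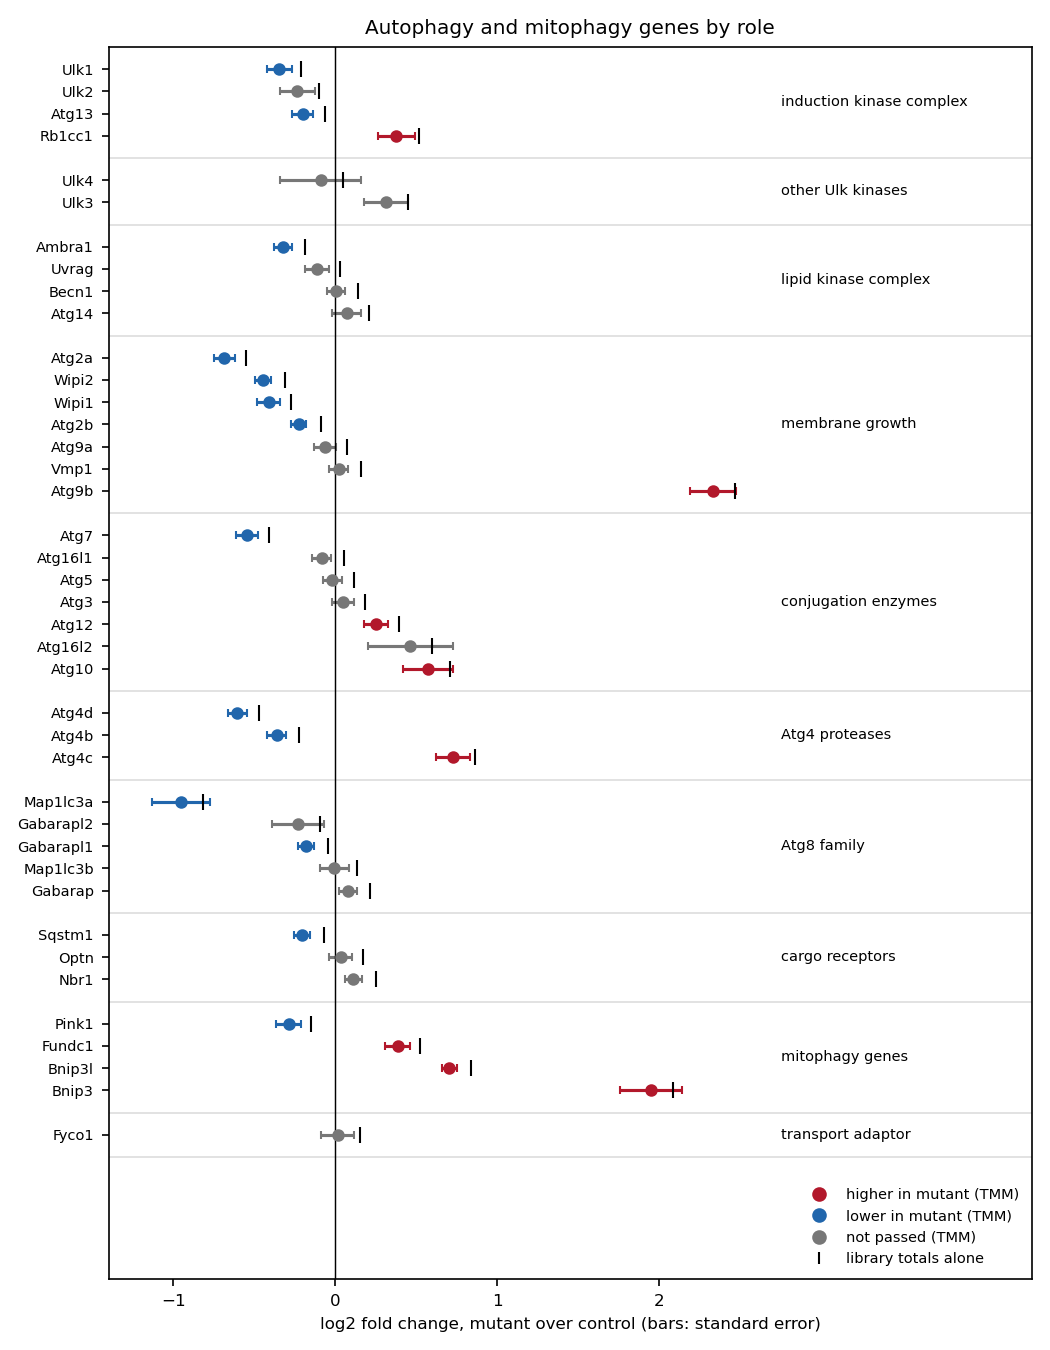
Log2 fold change of mutant over control (x axis) for the 40 genes, grouped by role; points with bars are TMM-scaled values with their standard error, coloured by call, and short vertical marks are the values with library totals alone. Atg9b and Bnip3 stand far to the right of all others, and library totals move every gene to the right by a similar amount.

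The mitophagy receptor genes Bnip3, Bnip3l and Fundc1 rose in the mutant, while the kinase gene Pink1 fell. These are the 4 mitophagy genes of the set, and over all genes tested 28.3% rose and 29.2% fell. Other receptors of the outer mitochondrial membrane, outside the set, did not follow: Fkbp8, at 738, 731, 542 and 515 CPM, fell by 0.48 ± 0.04 (adjusted p = 5.56e-08), and Bcl2l13, at 89.2, 86.4, 92.6 and 90.1 CPM, did not pass (0.06 ± 0.06, adjusted p = 0.396). Bnip3 (ENSMUSG00000078566), a receptor that binds Atg8 proteins and is induced by low oxygen, had 67, 43, 267 and 117 counts, or 2.62, 1.97, 10.1 and 7.44 CPM. Both mutant libraries lay far above both controls, and the mutant libraries differed from each other by more than the controls did. Its mean went from 2.30 ± 0.458 to 8.77 ± 1.87 CPM (SD, n = 2 here and below), a 3.86-fold rise (1.95 ± 0.19, adjusted p = 2.33e-07). Over left-out libraries, scalings, filters and tests the log2 value ran from 1.68 to 2.17 and always passed.

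Bnip3l (ENSMUSG00000022051, also called Nix) was far more abundant, at 153, 155, 250 and 251 CPM. The replicates of each group nearly coincided and the groups were well apart. It rose 1.63-fold (0.70 ± 0.05, adjusted p = 9.47e-10). Per kilobase of transcript, Bnip3l stood at 47.3 and 47.8 CPM in controls and 77.1 and 77.7 in mutants, and Bnip3 at 1.49 and 1.12 in controls and 5.75 and 4.24 in mutants, so the order of the pair was the same in every library. Bnip3 took 1.68% (Wilson 95% interval 1.33 to 2.13) and 1.26% (0.935 to 1.69) of the pair's counts in controls and 3.88% (3.45 to 4.36) and 2.88% (2.40 to 3.44) in mutants. These intervals, like those below, cover counting error only. The level of Bnip3 is uncertain, because 54.5% of the 36-base runs in its annotated transcripts also occur in transcripts of other genes, among them 975 of 2260 runs in a long non-coding RNA. For Bnip3l the share was 22.9%, all in its processed pseudogene, which had 80, 62, 153 and 78 counts of its own.

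Fundc1 (ENSMUSG00000025040), another receptor for mitochondria, was at 27.2, 27.4, 35.2 and 36.1 CPM. Its groups did not overlap, and it rose 1.30-fold (0.38 ± 0.08, adjusted p = 0.000534). None of its 36-base runs occurred in another gene. Pink1 (ENSMUSG00000028756), the kinase that recruits parkin to damaged mitochondria, was at 49.9, 52.1, 44.2 and 38.9 CPM, with both mutants below both controls. It fell by 0.29 ± 0.08 (adjusted p = 0.00475), but did not pass with library totals alone (adjusted p = 0.111) and, with mutant replicate 2 left out, had 0.0745; the lowest over the alternatives was 2.37e-05. Its partner Park2 was too scarce to test, as given above.

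**Figure D2:**
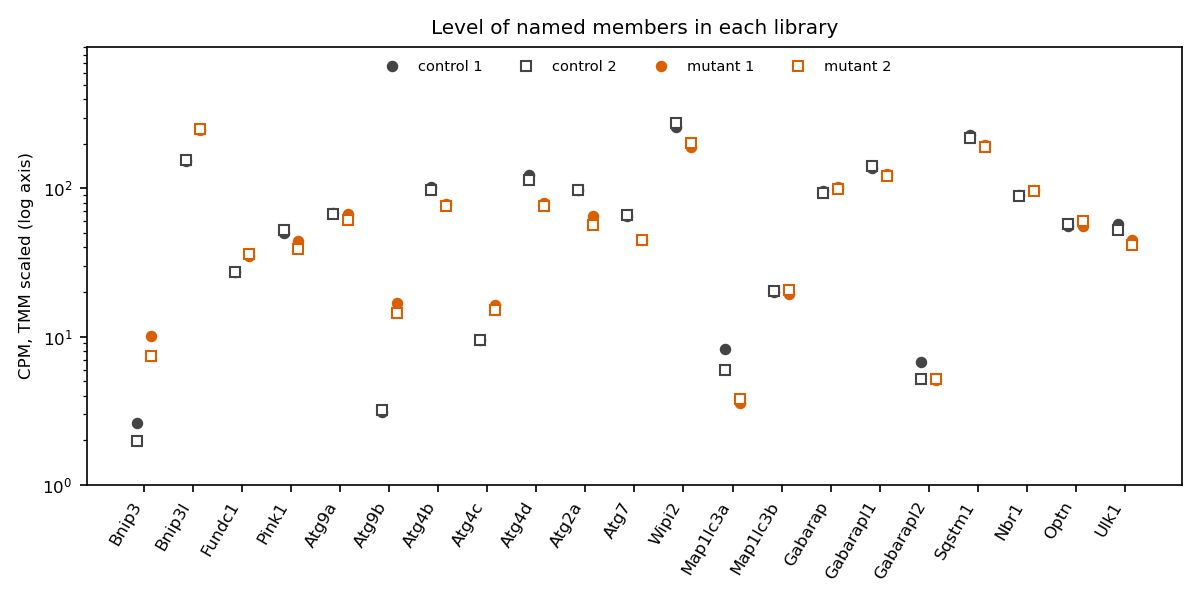
CPM on a log axis (y) for 21 genes (x) in each library; grey symbols are controls, orange symbols mutants, circles replicate 1 and open squares replicate 2. The Bnip3 and Atg9b symbols of the mutants sit well above those of the controls, while Map1lc3b, Optn and Atg9a overlap.

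Of the 7 genes that feed the growing membrane, Atg2a, Atg2b, Wipi1 and Wipi2 fell, Atg9b rose, and Atg9a and Vmp1 did not pass; over all genes tested 29.2% fell and 28.3% rose. With library totals alone Atg2b did not pass and Vmp1 passed as higher, which leaves 3 falls and 2 rises. Atg9b (ENSMUSG00000038295), a paralog of the membrane protein Atg9a that carries lipid to the forming autophagosome, had 79, 70, 450 and 227 counts, or 3.09, 3.21, 17.0 and 14.4 CPM. The controls nearly coincided, and both mutants were several times higher. Its mean went from 3.15 ± 0.0854 to 15.7 ± 1.81 CPM, a 5.04-fold rise and the largest change of the 40 (2.33 ± 0.14, adjusted p = 3.73e-10). Atg9a was at 67.8, 67.5, 67.7 and 61.3 CPM, overlapping between groups, and did not pass (-0.06 ± 0.07, adjusted p = 0.433); another annotated transcript of the same strand covers 31.8% of its exon bases. Atg9b took 4.36% (3.51 to 5.40) and 4.54% (3.61 to 5.70) of Atg9 counts in controls and 20.1% (18.5 to 21.8) and 19.1% (16.9 to 21.4) in mutants. Per kilobase, Atg9b stood at 0.792 and 0.823 CPM in controls and 4.36 and 3.70 in mutants, and Atg9a at 16.5, 16.4, 16.5 and 14.9.

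Exons of Atg9b share 294 bases with exons of Nos3, the endothelial nitric oxide synthase gene on the opposite strand. Nos3 had 2, 1, 28 and 13 counts and rose as well (adjusted p = 3.04e-05). Its counts were far below those of Atg9b in each mutant library. The sources used here do not state whether counting used strand, so reads in the shared part cannot be told apart.

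Atg2a (ENSMUSG00000024773), a lipid transfer protein between the endoplasmic reticulum and the forming membrane, was at 98.3, 98.1, 65.1 and 56.5 CPM and fell by 0.69 ± 0.07 (adjusted p = 1.46e-07). Both mutants were well below both controls. Its paralog Atg2b, at 218, 225, 185 and 195 CPM, fell by 0.23 ± 0.05 (adjusted p = 0.000624), and had adjusted p = 0.112 with library totals alone, in a range that began at 3.29e-08. Wipi2, which reads the lipid mark and brings in the conjugation machinery, fell by 0.45 ± 0.05 from 267 ± 11.4 to 196 ± 8.89 CPM (adjusted p = 7.24e-07). Its paralog Wipi1 fell by 0.41 ± 0.07 from 62.1 ± 3.25 to 46.8 ± 0.716 CPM (adjusted p = 0.000107). Vmp1, a lipid scramblase of the endoplasmic reticulum, did not pass (0.02 ± 0.06).

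The 3 Atg4 proteases, which prepare Atg8 proteins for conjugation and later release them, moved in opposite directions. Here 1 rose and 2 fell, where 28.3% of all genes tested rose and 29.2% fell. Atg4c (ENSMUSG00000028550) was at 9.54, 9.54, 16.2 and 15.2 CPM and rose 1.65-fold (0.73 ± 0.11, adjusted p = 1.92e-05), with no overlap between groups. Atg4d (ENSMUSG00000002820), at 124, 114, 79.7 and 76.7 CPM, fell by 0.61 ± 0.06 (adjusted p = 1.30e-07). Atg4b, the main protease for Map1lc3b, fell by 0.36 ± 0.06 from 99.7 ± 2.62 to 77.5 ± 1.39 CPM (adjusted p = 3.01e-05). Atg4c went from 4.06% (3.59 to 4.59) and 4.31% (3.77 to 4.92) of the counts of these 3 genes to 9.32% (8.51 to 10.2) and 9.03% (7.999 to 10.2). Exons of Kri1 on the opposite strand cover 19.3% of the exon bases of Atg4d; Kri1 itself did not pass (-0.14 ± 0.07, adjusted p = 0.0802).

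**Figure D3:**
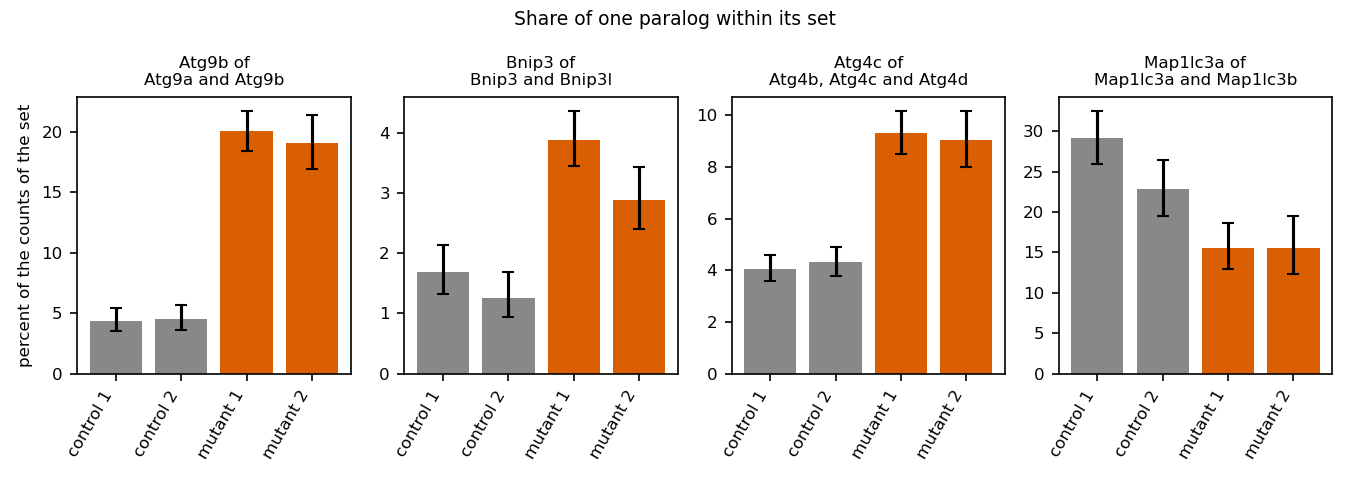
Percent of the counts of a paralog set (y axis, from 0) that fell on one gene, by library; grey bars are controls, orange bars mutants, and error bars are Wilson 95% intervals. Atg9b rose from under 5% to about 20% of Atg9 counts, Atg4c from about 4% to about 9%, while Map1lc3a went from 29.1% and 22.8% to 15.6% in both mutants.

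In the Atg8 family, whose proteins coat the membrane and dock cargo receptors, 2 of 5 genes fell and 3 did not pass. Of all genes tested 29.2% fell. Map1lc3a (ENSMUSG00000027602) had 210, 130, 95 and 60 counts, or 8.21, 5.96, 3.59 and 3.82 CPM. Both mutants were below both controls, and the controls were the more scattered pair. Its fall of 0.95 ± 0.18 was the largest of the 40 genes (adjusted p = 2e-04), and ran from -1.17 to -0.70 over the alternatives, the last without control replicate 1. Gabarapl1 (ENSMUSG00000030161), at 138, 141, 124 and 122 CPM, fell by 0.18 ± 0.05 (adjusted p = 0.00483). It did not pass with library totals alone (adjusted p = 0.467), upper quartile scaling (0.0807) or with mutant replicate 2 left out (0.0603); its lowest value was 8.13e-05.

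Map1lc3b, the usual marker protein of autophagosomes, was at 19.98, 20.2, 19.5 and 20.7 CPM, overlapping between groups (-0.01 ± 0.09, adjusted p = 0.964). Gabarap was at 96.3, 93.5, 102 and 98.7 CPM (0.08 ± 0.05, adjusted p = 0.225); the groups did not overlap, and it passed as higher with library totals alone (0.22, adjusted p = 0.00227) and upper quartile scaling (0.16, adjusted p = 0.021), in a range up to 0.628. Gabarapl2 was at 6.77, 5.18, 5.10 and 5.15 CPM (-0.23 ± 0.16, adjusted p = 0.24); here control 1 alone stood apart, and without control replicate 2 the value was -0.42 (adjusted p = 0.038, range up to 0.932). Per kilobase the family was led by 2 genes: Gabarapl1 stood at 76.0 and 77.4 CPM in controls and 68.3 and 66.9 in mutants, and Gabarap at 71.3 and 69.2 in controls and 75.3 and 73.0 in mutants. Per kilobase Gabarapl1 was the higher in both controls and Gabarap in both mutants. This switch rests on the transcript lengths used, 1820 bases for Gabarapl1 and 1351 for Gabarap. In CPM Gabarapl1 was the higher in every library. The other 3 lay between 3.04 and 8.17 CPM per kilobase in every library. Part of the sequence of some is shared: 13.9% of the 36-base runs of Gabarapl2 and 7.73% of those of Map1lc3b occur in other genes, processed pseudogenes among them, and 24.7% of those of Gabarapl1 in a transcript of the opposite strand.

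The 3 cargo receptors of the set, which tether ubiquitinated material to Atg8 proteins, changed little. Sqstm1 (ENSMUSG00000015837, also called p62), the abundant receptor for protein aggregates, was at 228, 220, 197 and 192 CPM and fell by 0.21 ± 0.05 (adjusted p = 0.00113); with library totals alone it had adjusted p = 0.214, in a range that began at 4.64e-07. Exons of Mrnip on the opposite strand cover 17.3% of its exon bases. Nbr1, a related receptor, was at 90.2, 89.2, 98.3 and 95.4 CPM and did not pass (0.11 ± 0.05, adjusted p = 0.0881). Its groups did not overlap, and it passed as higher with library totals alone (0.25), upper quartile scaling (0.19), the stricter filter and the replicate block, in a range of adjusted p from 0.000735 to 0.401. Optn, a receptor for ubiquitin-marked mitochondria and bacteria, was at 55.5, 57.7, 55.8 and 60.4 CPM, overlapping between groups (0.03 ± 0.07), and passed with library totals alone (0.17, adjusted p = 0.0488, range up to 0.986). Fyco1, which links autophagosomes to microtubule motors, did not pass (0.01 ± 0.10).

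The complexes that start autophagy showed small shifts. Ulk1 (ENSMUSG00000029512), the initiating kinase, was at 57.1, 52.3, 44.7 and 41.2 CPM, with both mutants below both controls, and fell by 0.35 ± 0.08 (adjusted p = 0.000943). Its partner Atg13 fell by 0.20 ± 0.07 from 67.2 ± 2.74 to 58.5 ± 0.399 CPM (adjusted p = 0.0151). That call was lost with upper quartile scaling (adjusted p = 0.117), library totals alone (0.422), without control replicate 1 (0.12) and with mutant replicate 1 left out (0.0934); the lowest adjusted p of the alternatives was 0.000611. The scaffold gene Rb1cc1 rose by 0.38 ± 0.12 (adjusted p = 0.0108), its mean moving from 9.10 ± 0.618 to 11.9 ± 0.534 CPM. Its adjusted p was 0.0967 by DESeq2, 0.0697 without control replicate 2 and 0.0561 with mutant replicate 2 left out, and 0.000977 at the lowest. Of the 14848 runs of 36 bases in Rb1cc1, 10.9% occur in other genes. A processed pseudogene holds 1120 of these runs and had 73, 78, 118 and 65 counts of its own. Ulk2 did not pass (-0.24 ± 0.11, adjusted p = 0.071). Ulk3 (0.31 ± 0.14) and Ulk4 (-0.09 ± 0.25), relatives with roles outside this complex, did not pass either. Ulk3 passed as higher with library totals alone (0.45, adjusted p = 0.00975), upper quartile scaling (0.0233), the stricter filter (0.045) and the replicate block (0.0455), in a range up to 0.301. Ulk4 shares 8.93% of its exon bases with the abundant Ctnnb1 on the opposite strand.

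In the lipid kinase complex 1 of 4 genes fell, where 29.2% of all genes tested fell. Ambra1, which binds Becn1 and supports the complex, went from 97.0 ± 2.18 to 77.4 ± 2.31 CPM (-0.32 ± 0.06, adjusted p = 0.000113). Becn1, the core subunit, was at 128 ± 5.46 and 128 ± 7.91 CPM (0.002 ± 0.06, adjusted p = 0.979); 43.9% of its exon bases are shared with Cntd1 on the opposite strand, which had 7 to 16 counts per library. Atg14 (0.07 ± 0.09) and Uvrag (-0.11 ± 0.07), which define alternative forms of the complex, did not pass. With library totals alone Becn1 passed as higher (0.14, adjusted p = 0.0375, range up to 0.997).

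Of the 7 conjugation genes 2 rose, 1 fell and 4 did not pass, where 28.3% of all genes tested rose and 29.2% fell. Atg7, the activating enzyme that serves both conjugation systems, was at 64.7, 66.4, 45.1 and 44.8 CPM and fell by 0.54 ± 0.07 (adjusted p = 3.50e-06). Its replicates nearly coincided in each group. The ubiquitin-like Atg12 rose by 0.25 ± 0.07 from 40.5 ± 1.48 to 48.3 ± 0.0693 CPM (adjusted p = 0.00731), with adjusted p = 0.0559 without control replicate 2 (range from 0.000182). Atg10, the enzyme that passes Atg12 to Atg5, rose by 0.57 ± 0.15 from 4.19 ± 0.156 to 6.31 ± 0.529 CPM (adjusted p = 0.00442), with adjusted p = 0.0644 by DESeq2 (range from 0.000633). The target Atg5 (-0.02 ± 0.06), the transferase gene Atg3 (0.05 ± 0.07), and Atg16l1 (-0.08 ± 0.06) and Atg16l2 (0.46 ± 0.26), which direct conjugation to the membrane, did not pass. Atg16l2 rested on 29 to 54 counts per library and reached adjusted p = 0.0479 without control replicate 1 (range up to 0.607). Of the genes that did not pass, Atg3 (0.19, adjusted p = 0.0251, range up to 0.944) and Vmp1 (0.16, adjusted p = 0.029, range up to 0.885) passed as higher with library totals alone.

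Related genes outside the set were compared through 5 lists. The background for each list is all genes tested, of which 28.3% rose and 29.2% fell. With library totals alone these shares were 38.9% and 19.4%, and with upper quartile scaling 33.7% and 23.5%. Of 33 other autophagy machinery genes tested, 7 rose, 10 fell and 16 did not pass. The 3 largest rises above 10 CPM were those of Tbk1 (0.87), the kinase that phosphorylates Optn and Sqstm1, the lysosomal membrane gene Lamp2 (0.57) and Rab33b (0.35). The largest falls were those of the tethering subunits Vps33a (-0.40) and Vps11 (-0.34) and of Pik3r4 (-0.31), the regulatory subunit of the Becn1 complex. This split depended on scaling, with 14 rises and 3 falls under library totals alone and 11 and 5 under upper quartile scaling; without mutant replicate 1 there were 6 falls. Tcfeb was at 14.98, 14.5, 15.04 and 16.6 CPM and did not pass (0.09 ± 0.10).

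Of 22 other genes of mitochondrial quality control and dynamics, 14 fell, 1 rose and 7 did not pass, with a median of -0.38. Mul1 (-0.58), a ubiquitin ligase of the outer membrane, Rhot2 (-0.55), which anchors mitochondria to motors, and Phb2 (-0.54), an inner membrane protein that can act as a mitophagy receptor, fell the furthest above 10 CPM. The fusion genes Mfn1 (-0.38) and Mfn2 (-0.40) and the deubiquitinase gene Usp30 (-0.41) were among the falls. The riser was Dnm1l (0.17, adjusted p = 0.0284), the fission GTPase. That rise did not pass with DESeq2, with no filter beyond 1 count, or without control replicate 1, mutant replicate 1 or mutant replicate 2. With library totals alone 13 fell and 4 rose.

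Of 31 genes of nutrient signalling upstream of Ulk1, 6 rose and 13 fell. The rises ranged from 0.31 (Fnip1) and 0.34 (Fnip2), which were smaller than many of the falls, to over 3 for Ddit4 and Rragd. Ddit4, an inhibitor of the kinase mTOR, went from 2.41 to 24.3 CPM (3.33 ± 0.13, adjusted p = 1.85e-12), and Rragd, a GTPase that carries amino acid signals to mTOR, from 4.04 to 36.9 CPM (3.19 ± 0.10, adjusted p = 1.05e-13). Prkag2, a subunit of the energy sensor AMPK, changed by 1.00. The largest falls were those of Akt1s1 (-0.89), Sesn2 (-0.64) and Prkag1 (-0.52), another AMPK subunit; Mtor (-0.25) and Rptor (-0.44) also fell. With library totals alone the counts were 10 and 9, and with upper quartile scaling 8 and 12.

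Among 9 transcription factors linked to autophagy genes, 5 rose, 3 fell and Mitf did not pass. Gata1 fell by 0.55 and Klf1 by 0.73. Foxo3, which drives autophagy and antioxidant genes in red cell precursors, fell by 0.12 (adjusted p = 0.0358) from 201 to 185 CPM. Of the 3 falls this was the smallest. With library totals alone, upper quartile scaling or the stricter filter, 5 of the factors rose and 2 fell. The risers were Epas1 (1.71), Foxo1 (0.80), Hif1a (0.61), Zkscan3 (0.23) and Foxo4 (0.17). Hif1a, which encodes the oxygen-regulated subunit of a factor that acts on Bnip3, went from 52.9 to 80.8 CPM. The counts of 5 and 3 became 3 and 2 with DESeq2 and without control replicate 2, and 3 and 3 with no filter beyond 1 count.

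Of 26 hypoxia-responsive genes tested, the class to which Bnip3 belongs, 19 rose, 2 fell and 5 did not pass, with a median of 0.56; this list was chosen with the rise of Bnip3 known. Egln3, an oxygen-sensing prolyl hydroxylase, changed by 4.07, Pfkfb3, a regulator of glycolysis, by 1.94, and the glycolytic enzyme gene Pgk1 by 1.27. Vegfa (0.58), Slc2a1 (0.31) and Ldha (0.28) were among the rises. The glycolytic genes Pfkl (-0.50) and Hk1 (-0.38) fell. The count of rises was 21 with library totals alone and at least 16 in each alternative run.

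**Figure D4:**
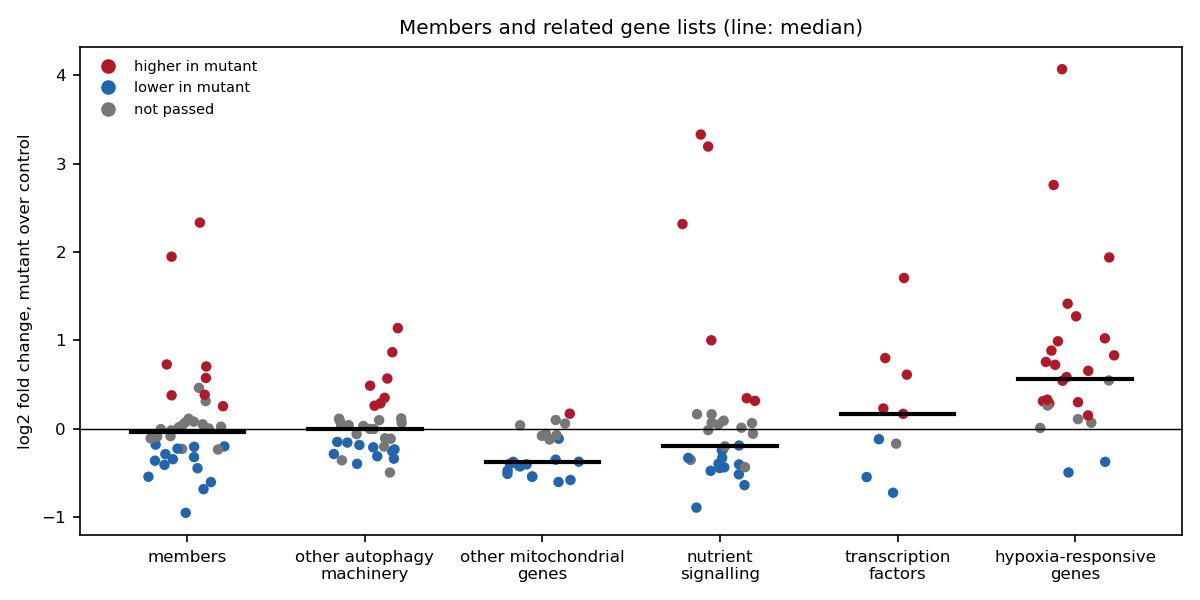
Log2 fold change of mutant over control (y axis) for the 40 autophagy genes (labelled members) and 5 related lists; each point is a gene, coloured by call, spread sideways only for visibility, and the black line is the median. The mitochondrial list lies mostly below 0 and the hypoxia-responsive list mostly above it, while the autophagy genes centre near 0 with a few high points.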

How the data were processed

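Messenger RNA of 4 libraries was sequenced. The submitters' processing notes name Bowtie, FastQC and edgeR, and mm9 as the build; the sources used here do not state how strand and multi-mapped reads were handled or which annotation was used. The authors deposited whole-number counts per gene and a table of log2 fold changes with p-values, per the file headers. Columns named WT were assigned to the control samples by their number. The 12 rows holding NA in every library were left out.

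Counts were tested with edgeR 4.0.16 (R 4.3.3, limma 3.58.1): filterByExpr (13140 genes), TMM factors from 0.951 to 1.05, glmQLFit with robust, glmQLFTest, Benjamini-Hochberg adjustment. The fit was run on simulated counts in which few genes changed and all genes had the same spread. These data differ from that, with 57.5% of genes called, so the run did not test the scaling or the error rate here. Replicates of a group differed beyond sampling noise (chi-square per gene 5.67 in controls, 3.55 in mutants). With 2 libraries a group, the smallest p of an exact permutation test is 0.33, and shares were therefore not tested. Lengths are those of principal transcripts in GENCODE M21 (GRCm38), from which shared exons and 36-base runs were also counted. Alternatives were RLE, upper quartile and library total scaling, 2 other filters, DESeq2 1.42.0, limma-voom, a replicate block and each library left out. Genes changed by at least 1.5-fold, the Atg8, cargo receptor and mitophagy genes and Ulk1 are given per library; of each list up to 3 risers and 3 fallers above 10 CPM are named, and others named were chosen after their values were seen. The genes and lists were chosen with earlier results of these data known.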

Additional observations from a re-analysis of the deposited data

How the results depend on the processing

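Of the 12 alternatives, library totals alone moved the counts of called autophagy genes by more than 1.5 times: 15 rose and 9 fell, against 8 and 14. With each library left out in turn, the rises ran from 6 to 9 and the falls from 12 to 15; 1 group then has a single library, which is assumed to vary like the others. The falls of 9 genes and the rises of 5 passed in all 12 alternatives, and no called gene changed direction in any of them. For all genes tested, the matching shares with libraries left out, with the replicate block and over all 12 alternatives were not counted. These counts therefore do not set the autophagy genes apart from other genes. The numbers of the libraries do not mark a shared litter or day in the labels. Deviations of same-numbered libraries correlated at 0.12 over 13140 genes. With the replicate block 10 genes rose and 15 fell, and the median change stayed at -0.04; Ulk2, Ulk3 and Nbr1 passed there. The median of the set was 0.09 with library totals alone, 0.03 with upper quartile scaling, -0.08 with no filter beyond 1 count and -0.07 without control replicate 2, where the median of all genes was 0.15, 0.09, 0.07 and 0.01. Counts of related genes over the 5 lists moved by less than 1.5 times, from 38 rises and 42 falls to 54 and 29 with library totals alone. The scarcest genes, Ulk4 and Atg16l2 with 152 and 179 counts in all, had the largest standard errors of the 40, 0.25 and 0.26. The standard error from pooled livers does not show the spread between embryos.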
